A study of Mus musculus with 9 samples.

Results

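The genes described here are the guanylate-binding proteins of C1498 cells, a mouse cell line derived from acute myeloid leukaemia. Probe sets were taken by gene symbol from a list of 8 family members, Gbp2 to Gbp9. Named probe sets were found for 6 of the 8, 3 on chromosome 3 (Gbp7, Gbp3 and Gbp2) and 3 on chromosome 5 (Gbp8, Gbp9 and Gbp4), among 19572 named probe sets in all. Gbp5 and Gbp6 were not analysed here. Each of the 6 genes had 1 named probe set, so the rule of taking the probe set with the highest mean made no choice. Expression was measured on 9 arrays of GFP-positive cells collected 2 weeks after overnight infection with lentivirus. The 3 control arrays (Scr, replicates 7, 8 and 9) came from cells with a negative control construct. The 3 arrays called shZeb1_C here (replicates 10, 11 and 12) came from cells with hairpin sequence C against Zeb1, and the 3 called shZeb1_D (replicates 13, 14 and 15) from cells with hairpin sequence D. Cells of all 3 groups, controls included, carried a lentiviral construct with GFP and were cultured in the same medium. Neither separate infections for the arrays of 1 group nor clonality of the sorted cells is stated in the labels. Every error and p-value therefore measures only how far these samples spread, and that spread may be technical.

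Guanylate-binding proteins are large GTPases related to dynamin whose genes are strongly induced by interferon gamma and, to a lesser degree, by type I interferons. They assemble on the membranes of vacuoles that hold bacteria or parasites, and on bacteria in the cytosol, and there promote lysis and the activation of inflammasomes. Members of the mouse family lie in a cluster on chromosome 3 and in another on chromosome 5. Induction runs from the receptor through kinases and transcription factors to promoter elements called ISRE and GAS, named for the interferon response. Zeb1, the target of the hairpins, is a zinc-finger transcription factor that binds E-box sequences.

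The family was chosen by the comparisons of both hairpins with Scr, in which Gbp3, Gbp4 and Gbp7 had been called higher. The differences from Scr below are therefore a description, and counts of calls among the members in these comparisons support nothing.

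RefSeq promoter sequences (GRCm38.p6) were at hand for 3 of the 6 measured genes, Gbp2, Gbp3 and Gbp7. They are shown because the 3 genes stood higher with both hairpins and share a stretch of letters just before their start sites. The core of an ISRE, GAAA, any 2 bases and GAAA again, was searched on both strands in the 250 bases before each start. It was found for Gbp2, Gbp7 and the first of the 2 starts of Gbp3, where 2 overlapping matches lie. The second start of Gbp3 had none. Of 32851 mouse promoter windows of the same length, 978 (2.98%) held a match. The stretches of 60 bases around the matches follow, on the plus strand, with the matching letters in capitals.

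Gbp2, chr3:142620579-142620638: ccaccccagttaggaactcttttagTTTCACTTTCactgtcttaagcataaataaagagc
Gbp3, chr3:142559977-142560036: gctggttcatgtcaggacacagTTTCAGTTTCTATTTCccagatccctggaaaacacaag
Gbp7, chr3:142530258-142530317: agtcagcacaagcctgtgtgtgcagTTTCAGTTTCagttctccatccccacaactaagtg

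Between the match and the annotated start lie 49 bases in Gbp2 and 43 in Gbp7, and 29 after the nearer match of Gbp3. A core of the GAS type, TTCNNNGAA, which 7.02% of all windows hold, was found 2 times for Gbp7 and not in the windows of Gbp2 or Gbp3. The letters CAGGTG, an E-box form known to be bound by Zeb1, were searched on both strands and found in none of these windows, against 17.2% of all windows. Other E-box forms were not searched, so the windows may hold one. A match describes letters in a window and is not a measured site. Expression data alone do not show which factor bound.

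Array medians lay between 6.97 and 7.16 (log2), and no 2 arrays held identical values. Within groups, arrays differed along a shared direction that took 57.9% of the residual variance and put Scr 7 and 9, shZeb1_C 10 and 11 and shZeb1_D 13 in one set and Scr 8, shZeb1_C 12 and shZeb1_D 14 and 15 in the other. Zeb1 read 10.52, 10.29 and 10.56 in Scr, 10.41, 10.01 and 10.34 in shZeb1_C, and 9.56, 9.26 and 9.40 in shZeb1_D. In cells with hairpin D it fell by 1.05 ± 0.16 (log2 ± SE), to 48.3% of Scr, with a limma adjusted p = 0.0263, a call lost without any one of Scr 7, 8 and 9 or shZeb1_D 14 and 15 (adjusted p = 0.0502 to 0.157). The arrays labelled shZeb1_C stood at 86.9% of Scr (limma adjusted p = 0.895), so a fall of Zeb1 was not detected in the group labelled with hairpin C. Exact two-sided permutation tests gave 0.10 for hairpin D, the smallest p that 3 arrays against 3 allow, and 0.30 for hairpin C. The labelled cell type was checked too. Of 9 myeloid marker genes (Itgam, Cd33, Csf1r, Spi1, Mpo, Elane, Lyz2, Cebpa and Csf3r), 8 gave a mean signal below the median of all probe sets. Of 9 T and NK cell genes, 6 lay above that median, and the T cell genes Cd3e and Cd3g lay at percentiles 96.1 and 98.5. These levels are means over all 9 arrays, hairpin groups included. In Scr alone Gzmb and Cd2 had means of 6.06 and 6.90, below that median of 7.1, and Klrk1 lay just above it at 7.15. Nkg7 had a mean of 4.58 in Scr and 10.52 in shZeb1_C. Cd3e and Cd3g had Scr means of 14.65 and 15.53. Ncr1, Klrb1c and Nkg7 of the same list lay below it, at percentiles 5.8, 34.2 and 44.7. The leukocyte gene Ptprc lay at percentile 97.3. Signals of different probe sets are only roughly comparable, and the markers are described, not used to rename the cells.

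All 6 measured guanylate-binding protein genes were higher in both hairpin groups than in Scr, with no overlap between the 3 control arrays and the 6 hairpin arrays for any of them. The median difference over the 6 genes was 1.98 on the log2 scale in shZeb1_C and 1.35 in shZeb1_D, against 0.00 and 0.04 over all probe sets. Among all probe sets, 7.5% had all 3 shZeb1_C arrays above all 3 Scr arrays, 10.3% had all 3 shZeb1_D arrays above them, and 2.58% had both. The 2 comparisons share the Scr arrays, so these are not separate observations. In the plot of single arrays the Scr points form the lowest group in each panel.

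**Figure D1:**
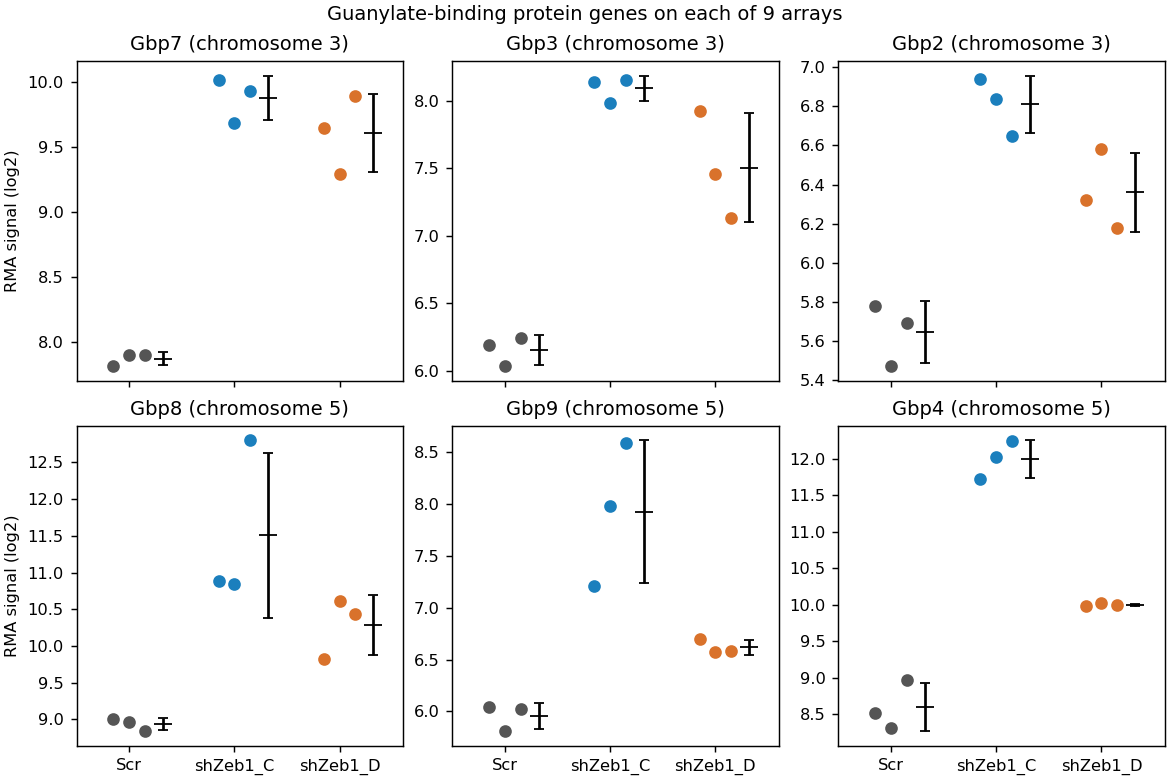
RMA signal (log2, vertical axis; ranges differ between panels) of the 6 measured Gbp genes on each array, by group; black bars give the mean and SD of 3 arrays. The lowest hairpin array lies above the highest Scr array in every panel, by 0.40 for Gbp2 and 1.39 for Gbp7.

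On chromosome 3, Gbp7 was the member whose levels with the 2 hairpins lay closest together. Gbp7 has been tied to autophagy and to assembly of the phagocyte oxidase. Its log2 signal was 7.81, 7.90 and 7.90 in Scr, 10.01, 9.68 and 9.93 in shZeb1_C, and 9.64, 9.29 and 9.89 in shZeb1_D. The hairpin arrays of both kinds overlapped with each other and lay at least 1.39 above the highest control. The mean difference from Scr was 2.00 ± 0.18 (SE) with hairpin C, a 4.01-fold higher signal, and 1.74 ± 0.18 with hairpin D, a 3.33-fold higher signal.

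Gbp3, next to Gbp7 in the gene order, is a member without the lipid anchor of Gbp2. It read 6.19, 6.03 and 6.24 in Scr, 8.14, 7.99 and 8.16 in shZeb1_C, and 7.93, 7.46 and 7.13 in shZeb1_D. The control and hairpin C arrays were tight, with ranges of 0.21 and 0.17, while the hairpin D arrays spread over 0.80 and all lay below the lowest hairpin C array. Its mean difference from Scr was 1.94 ± 0.20 in shZeb1_C and 1.35 ± 0.20 in shZeb1_D, 3.85-fold and 2.55-fold.

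Gbp2 ends in a motif for attachment of a prenyl lipid and is one of the members that coat parasite vacuoles. Its signals were 5.78, 5.47 and 5.69 in Scr, 6.94, 6.84 and 6.65 in shZeb1_C, and 6.32, 6.58 and 6.18 in shZeb1_D. The order Scr, hairpin D, hairpin C held with no overlap between groups. The differences from Scr were 1.16 ± 0.16 and 0.71 ± 0.16, or 2.24-fold and 1.64-fold. Its mean in Scr lay at percentile 22.5 of all probe sets, a range in which arrays can understate fold differences.

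On chromosome 5, Gbp4 had the highest fold difference of the 6 genes with hairpin C. Gbp4 has been reported to restrain induction of type I interferon through the factor Irf7. It read 8.52, 8.32 and 8.97 in Scr, 11.72, 12.02 and 12.24 in shZeb1_C, and 9.99, 10.02 and 10.00 in shZeb1_D. The 3 hairpin D arrays lay within 0.03 of each other, 1.02 above the highest control and well below the lowest hairpin C array. The difference from Scr was 3.39 ± 0.20 in shZeb1_C (10.5-fold) and 1.40 ± 0.20 in shZeb1_D (2.64-fold).

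Gbp8, a less studied member, read 9.00, 8.96 and 8.84 in Scr, 10.88, 10.84 and 12.80 in shZeb1_C, and 9.82, 10.61 and 10.43 in shZeb1_D. One array, shZeb1_C 12, stood far above the rest of its group, which lay just above the hairpin D arrays. The difference from Scr was 2.57 ± 0.47 in shZeb1_C and 1.35 ± 0.47 in shZeb1_D, and without shZeb1_C 12 the former was 1.93. The cytotoxic granule gene Nkg7 was also highest on that array, at 12.65 against 9.11 and 9.79, with Scr between 4.32 and 4.94. Whether the 2 are linked was not tested.

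Gbp9, also little studied, read 6.04, 5.81 and 6.02 in Scr, 7.21, 7.98 and 8.58 in shZeb1_C, and 6.70, 6.57 and 6.58 in shZeb1_D. The hairpin C arrays spread over 1.37, while the hairpin D arrays kept within 0.13. The differences from Scr were 1.97 ± 0.29 and 0.66 ± 0.29, or 3.91-fold and 1.58-fold. Genes of the chromosome 5 cluster are close paralogs. Whether the probe sets tell members of the family apart, on chromosome 5 or on chromosome 3, was not tested, since no probe sequences were at hand.

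**Figure D2:**
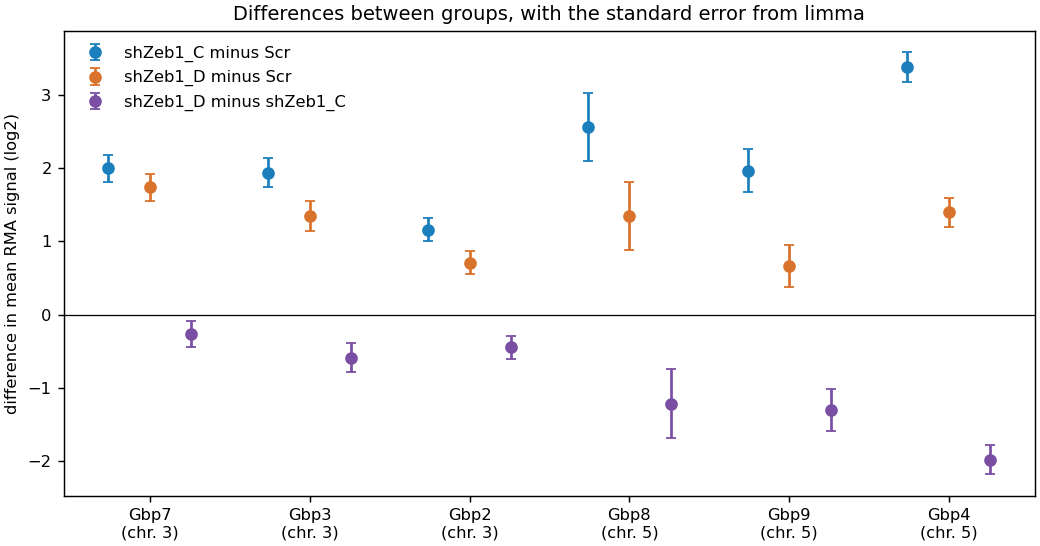
Difference between group means (log2) for each Gbp gene, with the standard error from limma: hairpin C minus Scr, hairpin D minus Scr and hairpin D minus hairpin C. All differences from Scr are above 0, from 0.66 to 3.39, and all differences of hairpin D from hairpin C are below 0, from -1.99 to -0.27.

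In limma's fit across all named probe sets, at a Benjamini-Hochberg adjusted p under 0.05, 6 of 6 members were called in shZeb1_C, where 0.945% of all probe sets were called and 0.659% were called higher. In shZeb1_D, 3 of 6 were called (Gbp3, Gbp4 and Gbp7), where 0.843% of all probe sets were called and 0.399% were called higher. Nothing is read from these counts, since the comparisons had served to choose the family. The count in shZeb1_C was 3 without Scr 8, Scr 9 or shZeb1_C 11, and the count in shZeb1_D was 1 without Scr 7, Scr 8 or shZeb1_D 14. The calls of Gbp3, Gbp4 and Gbp7 in shZeb1_C and of Gbp7 in shZeb1_D held in each of 17 other settings, which include leaving out each array in turn. That of Gbp2 in shZeb1_C was lost without Scr 8 or 9 or shZeb1_C 10 or 11, with differences of 1.08 to 1.19. That of Gbp9 was lost without Scr 7, 8 or 9 or shZeb1_C 11 (1.89 to 2.01), and that of Gbp8 without any array except shZeb1_C 12 and shZeb1_D 13 (2.53 to 2.91). In shZeb1_D the call of Gbp3 was lost without Scr 7, 8 or 9 or shZeb1_D 14 (1.29 to 1.40), and that of Gbp4 without Scr 7 or 8 or shZeb1_D 14 or 15 (1.26 to 1.40).

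The hairpins were also compared directly. This contrast is the difference of both comparisons with Scr that chose the family, and it rests on the same 6 hairpin arrays. It is therefore not independent of that choice, and its calls are a description too. All 6 members had a lower mean in shZeb1_D than in shZeb1_C, and for 5 of them, all but Gbp7, no arrays overlapped, as was the case for 6.26% of all probe sets in that direction. Gbp4 was lower in shZeb1_D, with a difference of -1.99 ± 0.20 (log2 ± SE; limma adjusted p = 0.00331), at 25.2% of its signal in shZeb1_C. It was the 1 member called, where 0.848% of all probe sets were called and 0.542% were called lower. Over 17 other settings its difference lay between -2.13 and -1.87, with adjusted p of 0.00105 to 0.0295.

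The other 5 members did not pass the test between the hairpins, and their intervals leave room for differences of different size. For Gbp9 the difference was -1.31 (95% interval -1.97 to -0.65, limma adjusted p = 0.0971), and without shZeb1_C 10 it passed (-1.66, adjusted p = 0.0263; 0.0263 to 0.307 over 16 other settings). For Gbp8 it was -1.22 (-2.28 to -0.16; adjusted p = 0.351). Without shZeb1_C 12 it was -0.57 (adjusted p = 0.308). A fit that took the array sets into account gave -1.52, which passed (0.0339; 0.0339 to 0.626 over its other settings). The sets were drawn from the residuals of these same values. That fit therefore lowers the spread by construction, and its p-values can be too small. For Gbp3, Gbp2 and Gbp7 the differences were -0.59 (-1.04 to -0.14), -0.45 (-0.82 to -0.08) and -0.27 (-0.67 to 0.14), with adjusted p of 0.292, 0.319 and 0.617. These intervals are not adjusted for the number of genes. The 3 chromosome 5 genes had a median difference between hairpins of -1.31 and the 3 chromosome 3 genes of -0.45, a contrast between clusters that was not tested.

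Over the 9 arrays the members varied together, with Pearson's r between pairs from 0.748 (Gbp7 and Gbp9) to 0.951 (Gbp4 and Gbp9). Within chromosome 3 the r values were 0.932 for Gbp3 and Gbp7, 0.944 for Gbp2 and Gbp3 and 0.877 for Gbp2 and Gbp7. These values include the differences between groups, and all points share the same arrays. Among non-member genes above the median level, the patterns most like that of Gbp4 were those of Pak1ip1 (r = 0.972), P2ry10b (0.970) and Sla2 (0.969), the last an adaptor that dampens T cell receptor signalling. Against Scr, shZeb1_C differed by 0.66, 2.38 and 3.04 for these genes, and shZeb1_D by 0.18, 0.74 and 1.27. Most like Gbp7 were Rnf13 (r = 0.978), Abcb1a (0.968), a drug efflux pump, and Lgals9 (0.958), galectin-9. For these 3 the values were 0.93, 2.93 and 1.39 with hairpin C, then 0.91, 2.52 and 1.19 with hairpin D.

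Genes that flank the clusters were examined because neighbours can share a shift. For each cluster the 10 nearest measured genes on each side were taken. On chromosome 3 their median difference from Scr was 0.04 in shZeb1_C and 0.19 in shZeb1_D, where 17 of 20 stood above 0 (55.8% of all probe sets did). The 3 Gbp genes differed by 1.16 to 2.00 and 0.71 to 1.74. On chromosome 5 the medians of the 20 neighbours were 0.08 and 0.06, against 1.97 to 3.39 and 0.66 to 1.40 for the Gbp genes. The largest differences among the neighbours were those of genes near the edges of the clusters, and Tgfbr3.

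Next to Gbp7, with no measured gene between, Pdlim5 encodes a scaffold protein of the actin cytoskeleton. It read 11.47, 11.14 and 11.63 in Scr, 12.58, 12.90 and 12.94 in shZeb1_C, and 12.14, 11.22 and 11.26 in shZeb1_D. It rose with hairpin C by 1.39 ± 0.26 (limma adjusted p = 0.0482), the only one of the 20 neighbours on chromosome 3 called there. Of all probe sets, 0.945% were called in that comparison. At limma's unadjusted p under 0.05 there were 2 of the 20 neighbours, against 8.77% of all probe sets. The call of Pdlim5 held only without shZeb1_D 13, among arrays left out in turn, with differences of 1.26 to 1.51 where it was lost. It was also lost with array medians subtracted (1.32, adjusted p = 0.073) and with a trended and robust variance prior (0.0645). With hairpin D it differed from Scr by 0.13 ± 0.26 and did not pass.

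On the other side, beyond Gbp2, lies Kyat3, an enzyme of kynurenine and glutamine metabolism. It read 10.60, 11.11 and 10.39 in Scr, 11.51, 11.56 and 11.71 in shZeb1_C, and 11.81, 12.87 and 12.55 in shZeb1_D. It rose with hairpin D by 1.71 ± 0.28 (limma adjusted p = 0.0326), and its 0.89 ± 0.28 with hairpin C did not pass. It was the 1 of 20 neighbours on chromosome 3 called with hairpin D, where 0.843% of all probe sets were called. Unadjusted, 4 of the 20 passed, against 13.6% of all probe sets. The call of Kyat3 was lost without Scr 7 or 9, shZeb1_C 10 or 11 or shZeb1_D 14 or 15, at differences of 1.48 to 1.71, and with only the 6 arrays compared (adjusted p = 0.0861). The next gene, Gtf2b, picked out after its values were seen, differed by 1.18 ± 0.53 in shZeb1_D (adjusted p = 0.376), with Scr arrays between 10.20 and 11.99.

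On chromosome 5, Abcg3, a membrane transporter of the ABC family before Gbp8, read 7.51, 6.75 and 6.77 in Scr, 8.34, 9.03 and 9.38 in shZeb1_C, and 7.34, 7.76 and 7.41 in shZeb1_D. It rose with hairpin C by 1.91 ± 0.30 (limma adjusted p = 0.0221), the 1 of 20 neighbours called there, where 0.945% of all probe sets were called. Unadjusted, 4 of the 20 passed, against 8.77% of all probe sets. The call of Abcg3 was lost without Scr 8 or 9, shZeb1_C 11 or 12 or shZeb1_D 15, at differences of 1.67 to 1.91, and with only the 6 arrays compared (adjusted p = 0.0634). Beyond Gbp4 follow Lrrc8b and Lrrc8c, subunits of the volume-regulated anion channel. Lrrc8b, picked out after its values were seen, differed from Scr by 1.58 ± 0.34 and 1.19 ± 0.34 with hairpins C and D (adjusted p = 0.080 and 0.177).

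Lrrc8c read 11.78, 12.08 and 12.03 in shZeb1_C and 10.94, 10.41 and 10.28 in shZeb1_D, against 10.80, 10.26 and 11.06 in Scr. It differed between the hairpins by -1.42 (limma adjusted p = 0.034), a call lost without Scr 7, any shZeb1_C array or shZeb1_D 14 or 15 (-1.51 to -1.29), with the trended prior (adjusted p = 0.0573) and with only the 6 arrays (0.0618). Tgfbr3, a co-receptor for TGF-beta, differed between the hairpins by -1.96 (adjusted p = 0.0174), lost without shZeb1_C 10 or 11 or shZeb1_D 15 (-2.07 to -1.89). Against Scr neither passed in shZeb1_C (1.26 and 1.47; adjusted p = 0.0537 and 0.0546). They were the 2 of 20 chromosome 5 neighbours called between the hairpins, where 0.848% of all probe sets were called. Limma called 0 of the 20 chromosome 3 neighbours there. At an unadjusted p under 0.05 there were 3 on chromosome 5 and 6 on chromosome 3, where 11.7% of all probe sets had one. With hairpin D against Scr, 0 of the 20 chromosome 5 neighbours were called, against 0.843% of all probe sets (2 unadjusted, against 13.6%). The direction of Lrrc8c and Tgfbr3, lower in shZeb1_D, is that of Gbp4 nearby. Whether the flanking genes and the Gbp genes share a cause was not tested.

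**Figure D3:**
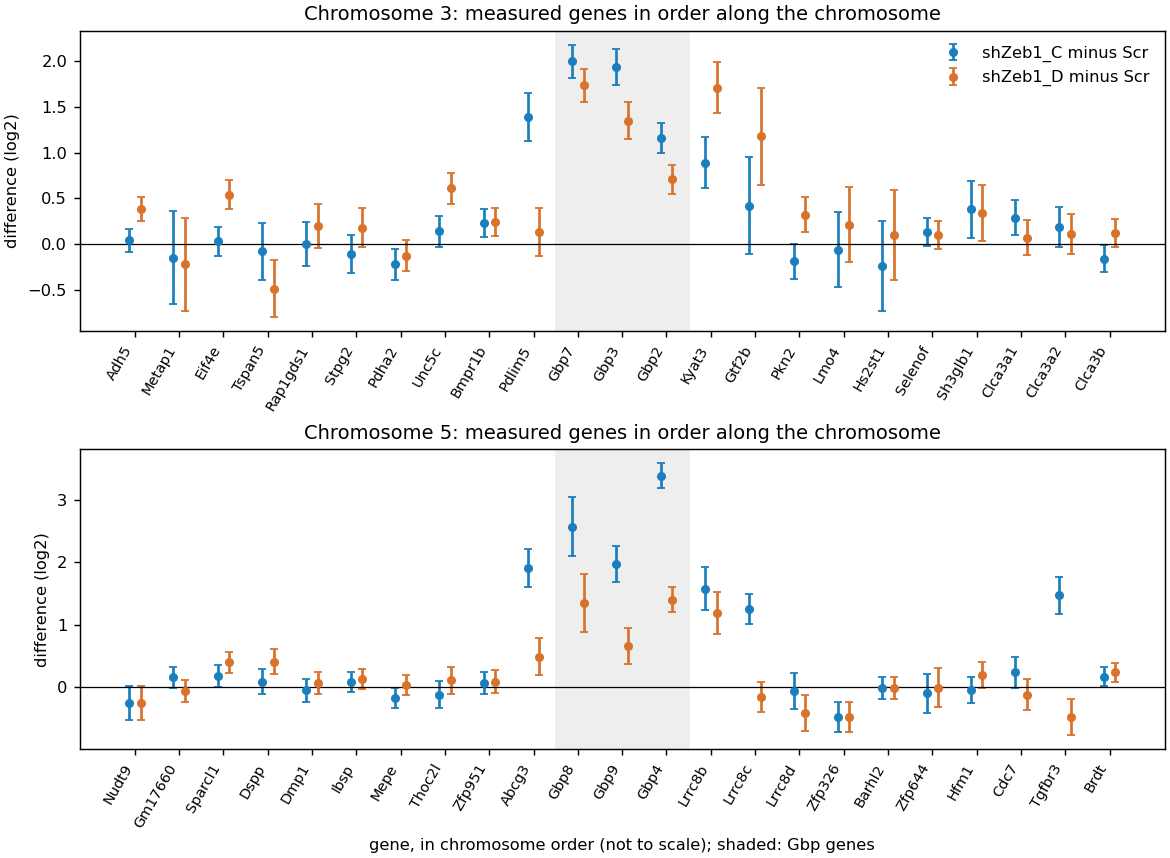
Difference from Scr (log2, with limma's standard error) of the Gbp genes (shaded) and of the 10 nearest measured genes on each side, in gene order and not to scale. Pdlim5, Abcg3, Lrrc8b, Lrrc8c and Tgfbr3 stand 1.26 to 1.91 above Scr in shZeb1_C, where Pdlim5 and Abcg3 passed the test and the others did not, and Kyat3 stands 1.71 above it in shZeb1_D and passed.

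Other genes of the pathway were read from lists and described by counts. Of 14 measured interferon-inducible GTPases outside the 6 members, which include the immunity-related GTPases Irgm1, Irgm2, Igtp and Iigp1 and the antiviral Mx1 and Mx2, limma called 0 in any of the 3 comparisons. At an unadjusted p under 0.05 there were 3 with hairpin C against Scr, 1 with hairpin D and 1 between the hairpins, out of 14 each time. Over all probe sets, 8.77%, 13.6% and 11.7% had an unadjusted p under 0.05 in these comparisons, and all later unadjusted counts are to be read against these shares. The median difference of the 14 from Scr was 0.08 in shZeb1_C, with a highest value of 0.84, and 0.16 in shZeb1_D, with a highest value of 0.67. In shZeb1_D all 14 stood above 0, as did 55.8% of all probe sets, and in shZeb1_C 9 of 14 did, against 50.1%. Subtracting array medians moves the median of all probe sets in shZeb1_D from 0.04 to -0.04, more than the lowest of the 14 values (0.03), so such counts near 0 depend on the scaling. Only 3 of the 14 gave a mean signal above the median of all probe sets, so that small changes of the others were hard to detect.

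Of 19 measured receptors, kinases and transcription factors of interferon signalling, 0 were called in any of the 3 comparisons by limma, and 13 of them lay above the median level. Their unadjusted p was under 0.05 for 2, 4 and 3 of the 19 in the same order of comparisons. Their median differences were 0.03 and 0.07, in a range of -0.29 to 0.94 with hairpin C and -0.92 to 0.79 with hairpin D. A few are named here after their values were seen. Irf1, a factor that drives Gbp transcription, had means of 8.98, 9.33 and 9.05 in Scr, shZeb1_C and shZeb1_D (limma adjusted p = 0.566 and 0.883 against Scr), with all 3 hairpin C arrays above the controls and the hairpin D arrays among them. The transcript of interferon gamma itself, Ifng, had means of 7.61, 7.57 and 7.83, with overlapping arrays in all 3 groups. Ifngr2, a chain of its receptor, stood at 11.02, 11.38 and 11.81, with all 3 hairpin D arrays above all controls, and missed the threshold (adjusted p = 0.078 in shZeb1_D). The receptor gene Ifnar2 had the highest difference with hairpin C, 0.94 ± 0.26 (limma adjusted p = 0.192), with all 3 arrays above the controls. With hairpin D it differed by 0.48 (0.453). Socs1 was lower on all 3 hairpin D arrays than on any other array (-0.54 against Scr, limma adjusted p = 0.187). Jak1 had the lowest difference with hairpin D, -0.92 ± 0.43 (0.39), with overlapping arrays.

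Among 8 inflammasome and pyroptosis partners of the Gbp proteins, Casp4, the mouse caspase-11 that senses lipopolysaccharide in the cytosol, read 6.91, 6.62 and 6.95 in Scr, 9.10, 9.94 and 10.89 in shZeb1_C, and 7.44, 8.58 and 7.91 in shZeb1_D. The groups did not overlap and followed the order of Gbp4. Casp4 rose with hairpin C by 3.15 ± 0.43 (limma adjusted p = 0.0109), a call lost without Scr 8 or 9 (3.05 and 3.21; adjusted p = 0.0512 and 0.0577). With hairpin D its difference of 1.15 ± 0.43 did not pass (adjusted p = 0.289). Aim2, a sensor of cytosolic DNA, went the other way. It read 9.90, 10.09 and 9.91 in Scr, 9.90, 9.54 and 10.17 in shZeb1_C, and 8.24, 8.77 and 8.62 in shZeb1_D.

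In cells with hairpin D, Aim2 fell by 1.42 ± 0.20 (limma adjusted p = 0.0209), lost without Scr 7, 8 or 9 or shZeb1_D 15 (-1.46 to -1.36). It also differed between the hairpins by -1.33 (adjusted p = 0.0204), lost without shZeb1_C 10 or shZeb1_D 15 (-1.31 and -1.37), when quantile normalized again (-1.19, adjusted p = 0.0539) and with only the 6 arrays compared (0.085). The other 6 genes of this list were not called in any comparison. Of all 8, limma's unadjusted p was under 0.05 for 2 with hairpin C, 3 with hairpin D and 2 between the hairpins. Il18, picked out after its values were seen, had means of 5.16, 6.45 and 6.66 in Scr, shZeb1_C and shZeb1_D. All its hairpin arrays lay above all controls, but neither difference passed (limma adjusted p = 0.347 and 0.194 against Scr). Of the 11 autophagy conjugation genes, whose products place Gbp proteins on vacuoles, and of the 6 enzymes of prenylation and CaaX processing, which attach the lipid anchor of Gbp2, 0 were called in any comparison. Unadjusted, limma's p was under 0.05 for 0, 2 and 1 of the autophagy genes and for 1, 0 and 1 of the enzymes. Each of these genes lay above the median level. Their median differences from Scr were 0.03 and -0.02 with hairpin C and -0.05 and -0.35 with hairpin D.

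**Figure D4:**
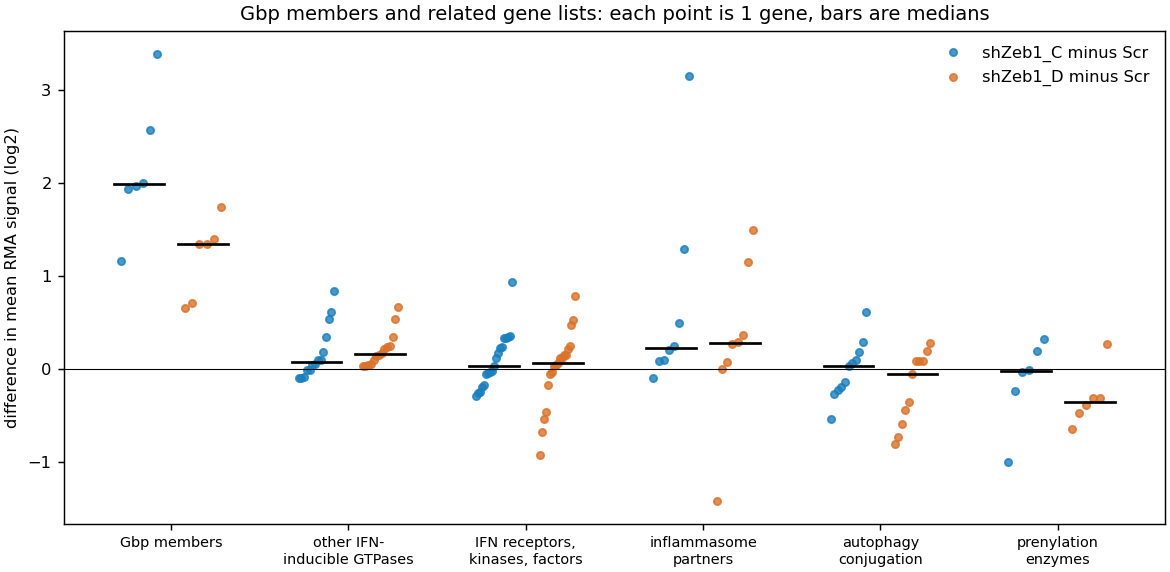
Difference from Scr (log2) of each measured gene of the Gbp family and of 5 related lists, hairpin C and hairpin D side by side; bars are medians. The Gbp medians are 1.98 and 1.35, while those of the other lists lie between -0.35 and 0.28; the highest point outside the family is Casp4 with hairpin C, at 3.15.

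Markers of other cell types were set beside the members. Of 9 T and NK cell genes, 3 were called higher in shZeb1_C, Nkg7 (5.93 ± 0.80; limma adjusted p = 0.0109), Gzmb (4.33 ± 0.59; 0.0109) and the receptor gene Klrk1 (1.98 ± 0.36; 0.0432), where 0.659% of all probe sets were called higher. In shZeb1_D against Scr 0 were called. An unadjusted limma p under 0.05 was seen for 5 of the 9 with hairpin C, 2 with hairpin D and 5 between the hairpins. The calls of Nkg7 and Gzmb were lost without Scr 8 or 9 (5.80 and 6.11, and 4.18 and 4.31), and that of Klrk1 without any array except shZeb1_D 13 (1.58 to 2.20), when quantile normalized again (1.87, adjusted p = 0.073) and with only the 6 arrays compared (0.0842). The summed linear signal of the 9 genes, given as log2, ran from 16.05 to 16.51 in Scr, from 16.32 to 16.55 in shZeb1_C and from 15.90 to 16.05 in shZeb1_D. Cd3g (group means of 15.44 to 15.56) and Cd3e (13.80 to 14.92) made up most of this sum. Changes of Nkg7 and Gzmb could hardly move it, so it does not describe them. The NK receptor Ncr1 lay at percentile 5.8 of all probe sets. Of 9 myeloid, 2 B cell and 3 dendritic cell and macrophage genes, 0 were called by limma in any comparison. Unadjusted p values under 0.05 were seen for 1 myeloid gene with hairpin D, for 1 B cell gene with hairpin D and 2 between the hairpins, and for no other. The summed myeloid signal ran from 9.42 to 9.59 over all 9 arrays. The part of any shift in cell makeup in the Gbp differences was not tested. In bulk RNA of this kind, more cells with a transcript and more transcript per cell cannot be told apart.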

How the data were processed

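RNA from 9 arrays, 3 per group, was measured as a 1-colour signal. The authors deposited linear RMA signals; RMA and the Transcriptome Analysis Console are named, without versions, in the submitters' processing notes, and no genome build is given in the sources used here. The deposited values lack their decimal point. Each of 199854 values was returned to log2 by the decimal place that makes its log2 a multiple of 0.01, within 1e-06 steps (farthest accepted 1.1e-12, nearest rejected 0.036). RMA can shrink differences of dim probe sets.

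Among 22206 probe sets, 19572 carried 1 gene symbol and none carried several. The remaining 2634, without a name here, stayed out of the tests. Gene order came from a RefSeq table (GRCm38.p6). A mean per group was fitted to all 9 arrays with limma 3.58.1 in R 4.3.3, with empirical Bayes moderation and Benjamini-Hochberg adjustment over the 19572 probe sets, called under 0.05. Precision is limited by how few arrays each group has. The comparisons were each hairpin against Scr and the hairpins against each other. Other settings covered dim probe sets, normalization, variance prior, array weights, arrays in the fit, array sets, threshold and leaving out each array.

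Members and lists were chosen with earlier results of these data known. Genes named by rule were Zeb1, the members, up to 4 called genes per list, called neighbours, and the 3 genes most correlated with Gbp4 and with Gbp7. Some uncalled genes were named outside this rule, as examples of a list, as cell type markers or after their values were seen. Predicted and olfactory genes were not named.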

Additional observations from a re-analysis of the deposited data

Results flagged for a closer look

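Genes were picked out here where a direct limma test between the hairpins passed an adjusted p under 0.05, so that the samples of both hairpin groups differed. Whether the hairpins caused these differences was not tested. Gbp4 differed by -1.99 (shZeb1_D minus shZeb1_C, log2), lower on all 3 hairpin D arrays than on any hairpin C array. Among the pathway genes, Aim2 differed by -1.33. Next to the chromosome 5 cluster, Lrrc8c differed by -1.42 and Tgfbr3 by -1.96. Of the cell type markers, Nkg7 differed by -5.33, a call lost without shZeb1_D 13 or 15, and Gzmb by -4.13, a call lost without shZeb1_C 10 or shZeb1_D 15 (differences of -5.05 and -5.14, and of -3.78 and -4.01). With only the 6 arrays compared both missed the threshold (adjusted p = 0.0837 and 0.0716). Groups of 3 arrays are too small for the outlier test used elsewhere on larger groups.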

How the results depend on the processing

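No paired analysis was possible because the groups share no replicate numbers. Over the settings tried, 264 of the 300 recomputed member differences kept their side of the threshold, 27 lost a call and 9 gained one. None changed sign, but many of them could not. The filter on level, the variance prior, the threshold and leaving out arrays outside a comparison leave the difference itself unchanged. Where the arrays of 2 groups do not overlap, leaving out 1 cannot reverse the sign. Members called in shZeb1_C numbered 6, and 3 to 6 with 1 array left out. In shZeb1_D they numbered 3, 1 to 4 with 1 array left out, and 5 with array weights. Between the hairpins they numbered 1, 1 to 2 with 1 array left out, 2 with array weights or a threshold of 0.1, and 3 with array sets as a covariate. With only the 6 arrays compared, members called numbered 4 in shZeb1_C (Gbp8 and Gbp9 lost, adjusted p = 0.101 and 0.0614), 2 in shZeb1_D (Gbp3 lost, 0.0667) and 1 between the hairpins. Calls over all probe sets were 185, 165 and 166 in the 3 comparisons; 572, 1076 and 833 with array weights; 875, 772 and 700 with array sets; 316, 300 and 313 at 0.1; 68 and 81 for the latter 2 with only the 6 arrays compared; and 43 to 214, 14 to 213 and 49 to 162 with 1 array left out. Zeb1 in shZeb1_D stayed at -1.05 but missed the threshold with the trended prior (adjusted p = 0.0796) and with only 6 arrays (0.0626), and ran from -1.13 to -0.98 with 1 array left out. Between the hairpins it was -0.85, and passed with array weights (-0.87), array sets (-0.81) and the threshold of 0.1 (-0.85); with 1 array left out it ran from -0.97 to -0.77, and in shZeb1_C from -0.29 to -0.08. The causes were not tested. The array sets were drawn from the residuals of these same values, so p-values of the fit that uses them can be too small. Quantile normalizing again left 5 members called in shZeb1_C, without Gbp8, and only 4 could be called above the median level, since Gbp2 and Gbp9 lie below it. No member had another named probe set, so that alternative was not run. For the other genes that were called and named, the same settings were added after the data were seen.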
